A study of Mus musculus with 8 samples.

Results

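The genes described here are the tumour suppressor p53, its regulators and its target genes, without CDK inhibitors and BCL2 family genes, in pro-B cells of mouse bone marrow with and without menin. The list holds 32 genes, taken by gene symbol from the platform annotation. Of these, 30 had at least 1 probe set among the 18193 genes of the table with a probe set of a single symbol, with 61 probe sets in all. Trp53 itself and Gdf15 were not analysed here. Menin-deficient cells came from 4 MenF/F mice with Rag1-cre, and control cells from 4 MenF/F mice without it. The labels give an age of 2 to 3 weeks, and all 8 mice carried the floxed Men1 alleles. Men1 encodes menin, a nuclear protein that joins MLL histone methyltransferases on chromatin. Rag1-cre deletes in lymphoid progenitors, where the Rag1 recombinase gene is active. Every menin-deficient mouse and no control carried Cre, so what Cre does by itself and what the loss of menin does cannot be told apart. From each mouse, early pro-B cells of Fraction B were sorted as positive for B220, CD43 and HSA and negative for BP-1, and they gave 1 expression array of log2 values, and 4 arrays a group limit the precision.

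p53 is a transcription factor that is held at low levels by the ubiquitin ligase MDM2 and its partner MDM4. DNA damage and other stress release it, and it then switches on genes for growth arrest, DNA repair and cell death, and the genes of its own inhibitors, which close a feedback loop. B-cell progenitors cut and join their own immunoglobulin genes during V(D)J recombination, and p53 guards them against breaks that are not repaired. Many of its targets also answer to other factors such as FOXO proteins.

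p53 binds as a tetramer to a pair of 10-base half-sites in DNA. The promoters of the members with a called probe set are shown here, as far as a p53 half-site lies in them, so that the candidate binding letters can be seen beside the expression values. Promoters are RefSeq sequences of GRCm38.p6, of 300 bases each, with 250 bases before and 50 bases after the gene start, written 5′ to 3′ on the strand of the gene. The p53 half-site consensus was searched with no mismatch allowed, and since it is its own reverse complement, 1 search covers both strands. Of 23 members with a promoter in the table, 9 held a half-site (39.1%), against 9.55% of 27025 genes. The members were listed as p53 regulators and targets, so this contrast describes the list and is no result of these arrays. No member promoter held a pair of such exact half-sites at most 13 bases apart, a pattern found in 0.0731% of all 32851 promoters. Pairs with a mismatch were not searched for, so a looser pair would be missed. In Ccng1 the 10 bases directly before the marked half-site depart from the consensus at 1 base. Of 7 members with a called probe set and a promoter, 5 held a half-site, which the capitals mark. They were not compared with the members without a called probe set. Zmat3, Xpc and Rrm2b, which also had a called probe set, had no promoter in the table. The Pml window lies at chr9:58249737-58250036, minus strand. The Ei24 window lies at chr9:36797285-36797584, minus strand. The Ccng1 window lies at chr11:40755237-40755536, minus strand. The Mdm2 window lies at chr10:117710709-117711008, minus strand. Sesn1 has another promoter in the table, at chr10:41810324-41810623, plus strand, which holds no half-site. The Sesn1 window shown lies at chr10:41887189-41887488, plus strand.
Pml: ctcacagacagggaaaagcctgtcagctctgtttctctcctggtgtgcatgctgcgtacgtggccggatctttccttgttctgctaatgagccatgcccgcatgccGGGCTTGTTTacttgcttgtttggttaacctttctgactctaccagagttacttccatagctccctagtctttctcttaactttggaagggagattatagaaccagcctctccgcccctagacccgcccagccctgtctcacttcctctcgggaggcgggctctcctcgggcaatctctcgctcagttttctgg
Ei24: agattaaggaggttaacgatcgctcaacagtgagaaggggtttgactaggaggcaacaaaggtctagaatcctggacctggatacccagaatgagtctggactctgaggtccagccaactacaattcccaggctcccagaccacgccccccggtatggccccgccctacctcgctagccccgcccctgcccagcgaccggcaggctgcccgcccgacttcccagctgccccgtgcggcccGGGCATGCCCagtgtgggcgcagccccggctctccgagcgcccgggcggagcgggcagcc
Ccng1: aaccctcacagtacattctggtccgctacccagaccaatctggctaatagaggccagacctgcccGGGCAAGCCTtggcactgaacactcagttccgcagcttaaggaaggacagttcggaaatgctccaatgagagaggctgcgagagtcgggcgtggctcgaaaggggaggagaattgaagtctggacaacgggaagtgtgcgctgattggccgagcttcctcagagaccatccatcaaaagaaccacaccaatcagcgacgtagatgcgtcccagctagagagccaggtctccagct
Mdm2: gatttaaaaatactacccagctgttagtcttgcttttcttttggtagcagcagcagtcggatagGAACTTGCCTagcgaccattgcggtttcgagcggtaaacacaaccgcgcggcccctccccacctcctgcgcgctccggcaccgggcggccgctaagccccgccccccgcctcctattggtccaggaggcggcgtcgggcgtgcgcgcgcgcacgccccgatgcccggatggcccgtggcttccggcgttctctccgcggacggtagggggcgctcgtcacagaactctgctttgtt
Sesn1: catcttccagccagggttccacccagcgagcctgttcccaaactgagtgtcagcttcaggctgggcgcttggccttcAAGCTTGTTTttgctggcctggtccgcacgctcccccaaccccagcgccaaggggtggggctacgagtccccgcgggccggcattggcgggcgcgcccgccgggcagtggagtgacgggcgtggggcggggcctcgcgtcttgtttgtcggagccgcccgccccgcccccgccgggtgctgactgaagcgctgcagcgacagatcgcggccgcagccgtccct
The half-sites began 144 bases before the gene start in Pml, 10 before it in Ei24, 185 before it in Ccng1, 186 before it in Mdm2 and 173 before it in Sesn1. A match is a description of letters and not a measured binding site.

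Men1 itself was lower in menin-deficient cells on each of its 3 probe sets, which checks the labels. Its brightest probe set read 7.85, 8.24, 8.50 and 8.03 in menin-deficient replicates 1 to 4, against 9.59, 9.19, 9.58 and 9.81 in control replicates 1 to 4 (log2, difference -1.39, SE 0.18). No source used here says whether they read the deleted exons. Pro-B markers were high on all arrays: the mean log2 level of 10 tested markers was 14.2 to 14.3 in menin-deficient and 14.1 to 14.2 in control arrays. Of these 10, 2 rose and 1 fell (20% and 10%, against 16.2% and 5.17% of all tested genes). None of the 4 sort-marker genes passed. Enpep, the gene of BP-1, read 12.12, 12.03, 10.44 and 12.17 in menin-deficient arrays, against 11.52, 10.63, 11.68 and 11.75 in control arrays. The mean of 4 tested T cell markers was 6.13 to 6.30 in menin-deficient arrays, against 5.07 to 5.34 in control arrays. Cd3d, Cd3e and Cd4 were not above the filter on low values, and 3 of the 4 tested markers rose. The mean of 7 NK cell markers was 7.32 to 8.09 in menin-deficient and 6.51 to 7.01 in control arrays, and 3 of 7 rose. The mean of 8 plasmacytoid dendritic cell markers was 8.18 to 8.57 in menin-deficient and 7.49 to 7.79 in control arrays, and 2 of 8 rose. Of 8 monocyte and macrophage markers 3 rose (6.35 to 7.75 in menin-deficient and 6.46 to 6.86 in control arrays). Of 6 plasma cell markers 1 rose and 2 fell (10.3 to 10.6 in menin-deficient and 10.6 to 11.1 in control arrays), of 5 tested erythroid markers 1 rose (6.85 to 7.73 in menin-deficient and 6.82 to 7.68 in control arrays), and of 8 granulocyte markers none passed (10.2 to 11.1 in menin-deficient and 9.92 to 10.6 in control arrays). The shares that rose were 75% of T cell, 42.9% of NK cell, 37.5% of monocyte and 25% of plasmacytoid dendritic cell markers. For erythroid and plasma cell markers they were 20% and 16.7%, near the 16.2% of all tested genes that rose. Of plasma cell markers 33.3% fell, against 5.17% of all tested genes. Menin-deficient replicate 3 had the highest NK and monocyte means. The part of such cells in the results that follow was not tested. In these bulk samples fewer cells of a type and less RNA per cell cannot be told apart.

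Of the 30 members on the array, 26 passed the filter on low values and were tested with limma over 11885 genes. Of these, 5 rose and 0 fell past an adjusted p of 0.05, and 21 did not pass. The 5 rises are 19.2% of the tested members, close to the 16.2% of all tested genes that rose, and 5.17% of all tested genes fell. The 5 were Zmat3, Dcxr, Pml, Xpc and Ei24, and their changes were small, from 1.17-fold to 1.79-fold. The groups did not overlap in these 5 and, below the controls, in Rrm2b, so 19.2% of tested members lay wholly above and 3.85% wholly below, against 20.3% and 6.06% of all tested genes. The median difference of the tested members was 0.08 on the log2 scale, against 0.11 for all tested genes. Relative to that shift of all genes, that is, with each array centred on its median tested gene, Zmat3 and Pml were higher, Ercc5 and Rrm2b were lower and 22 members did not pass, where 7.67% of all genes were higher and 8.17% lower. With each of the 8 arrays left out in turn, Ei24 passed every time. Zmat3 missed the threshold without control replicate 1 or 4 or menin-deficient replicate 2 or 4 (highest adjusted p = 0.0627), and Dcxr without those or menin-deficient replicate 3 (0.0766). Pml missed it without control replicate 1 or menin-deficient replicate 2 (0.0532), and Xpc without control replicate 4 or menin-deficient replicate 2 (0.0587). The plot of differences by role shows the 26 genes side by side.

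**Figure D1:**
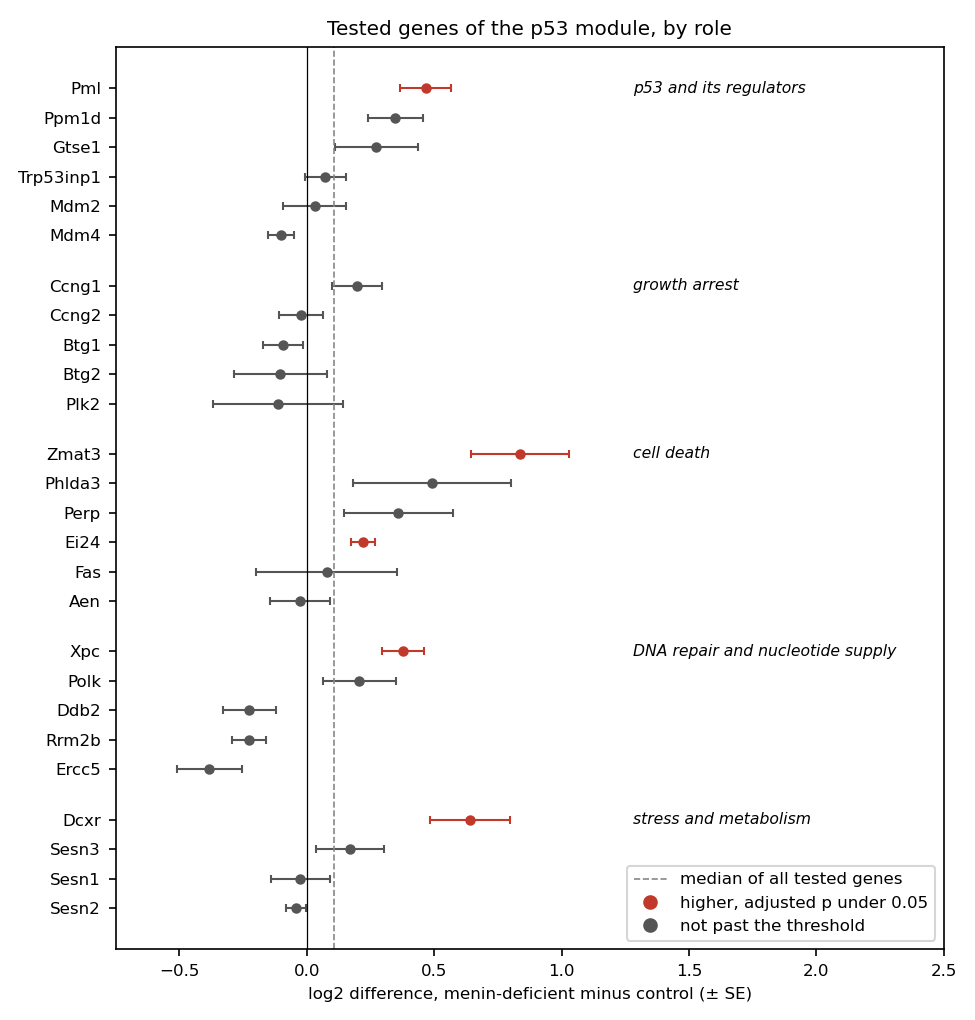
Log2 difference, menin-deficient minus control, with its standard error, of the 26 tested genes of the p53 module, grouped by role. Red points passed an adjusted p of 0.05. The 5 red genes lie between 0.22 and 0.84, right of the dashed line at the median of all tested genes (0.11), and the other genes scatter on both sides of it.

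Among the regulators of p53, Pml rose and the inhibitors did not pass. Pml encodes the scaffold of PML nuclear bodies, where p53 is modified, and is itself inducible by interferon. Its representative probe set (1448757_at) read 10.32, 10.72, 10.75 and 10.56 in menin-deficient replicates 1 to 4, against 10.07, 10.05, 10.17 and 10.19 in control replicates. Every menin-deficient array lay above every control, by 1.38-fold on average (log2 difference 0.47, SE 0.10, limma adjusted p = 0.0183). The other Pml probe sets pointed down, by -0.19 and -0.78, without passing. On the dimmest (1459137_at, -0.78, adjusted p = 0.129 in the limma fit over probe sets) every menin-deficient array lay below every control. On the mean of the 3 probe sets Pml differed by -0.17 (adjusted p = 0.546), so the rise rests on 1 probe set.

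Mdm2, the ligase that removes p53 and one of its classic targets, read 10.66, 10.91, 10.99 and 11.18 in menin-deficient arrays, against 10.95, 10.68, 10.99 and 10.99 in control arrays on its brightest probe set (1423605_a_at). The groups overlapped fully (difference 0.03, SE 0.12, adjusted p = 0.895). A dimmer Mdm2 probe set (1427718_a_at) read 8.91, 8.94, 8.71 and 8.93 in menin-deficient arrays, against 9.68, 9.46, 9.08 and 9.33 in control arrays. On that one all menin-deficient arrays lay below all controls (difference -0.51, SE 0.13, adjusted p = 0.0422 in the fit over probe sets). Mdm4, which blocks the p53 activation domain, differed by -0.10 (SE 0.05, adjusted p = 0.203). Ppm1d, the phosphatase WIP1 that shuts off the damage response, read 11.53, 11.70, 11.83 and 11.78 in menin-deficient arrays, against 11.37, 11.11, 11.40 and 11.57 in control arrays. Only control replicate 4 reached into the menin-deficient range, and the difference of 0.35 (SE 0.11) stopped short of the threshold (adjusted p = 0.0617). The other kept Ppm1d probe set (1449092_at) had the opposite sign (-0.15, SE 0.07, adjusted p = 0.209 in the fit over probe sets). Trp53inp1, a p53 cofactor that promotes cell death, and Gtse1, a mitotic protein that moves p53 out of the nucleus, differed by 0.07 and 0.27 (adjusted p = 0.552 and 0.271).

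No growth-arrest gene passed the test on its brightest probe set. This group includes the cyclin G genes Ccng1 and Ccng2, the antiproliferative BTG genes, and the polo-like kinases Plk2 and Plk3. Ccng1, one of the p53 targets most often seen in mouse tissues, differed by 0.20 (SE 0.10, adjusted p = 0.198). A second Ccng1 probe set (1450017_at) read 10.64, 10.86, 10.49 and 10.55 in menin-deficient arrays, against 10.32, 9.93, 10.34 and 10.04 in control arrays. That probe set was higher without overlap (difference 0.48, SE 0.12, adjusted p = 0.0458 in the fit over probe sets), while the remaining one differed by -0.23. The call on 1450017_at was lost in 13 of 20 alternative settings, among them centring (0.42, adjusted p = 0.0604). Ccng2 differed by -0.02, Btg2 by -0.10 and Plk2 by -0.11, with adjusted p of 0.890, 0.723 and 0.791. Plk3 and Rprm did not pass the filter on low values, with no array above 2.10 and 2.27.

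**Figure D2:**
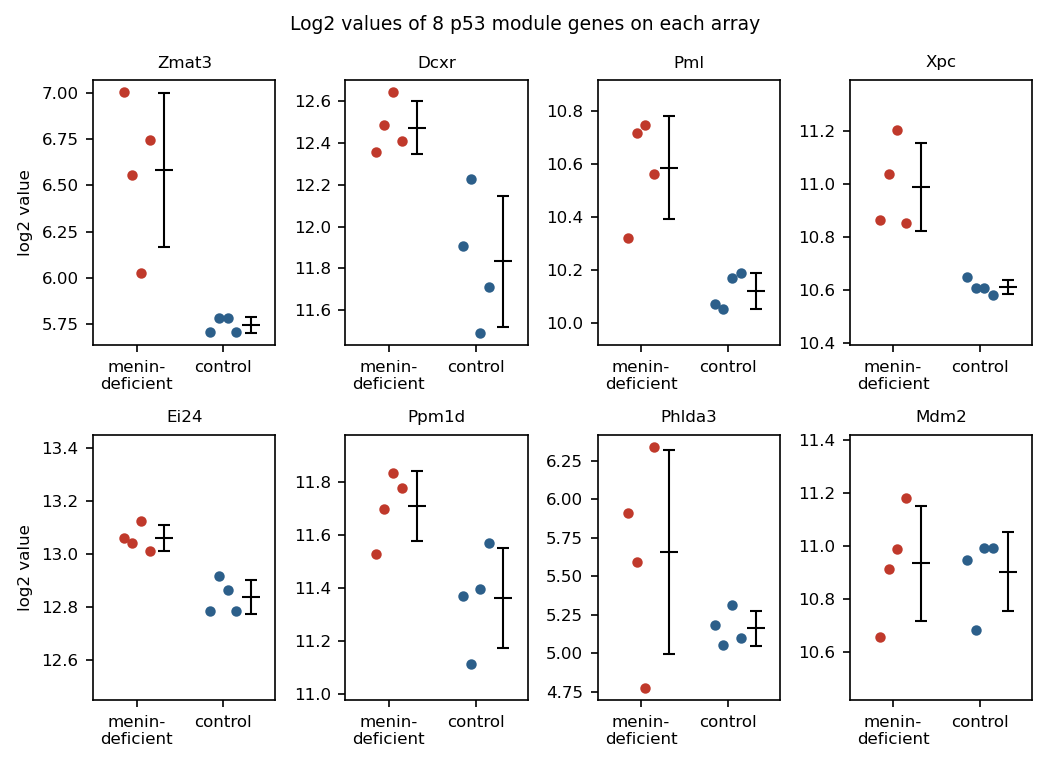
Log2 values on each array of 8 genes of the p53 module, on the brightest probe set of each, with menin-deficient arrays in red at the left and control arrays in blue at the right. The black bar is the mean and SD of 4 arrays, and axes differ between panels and do not start at 0. Zmat3, Dcxr, Pml, Xpc and Ei24 separate the groups, and Phlda3 and Mdm2 do not.

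Of the cell-death genes, Zmat3 and Ei24 rose. Zmat3 encodes a zinc finger RNA-binding protein that is a direct p53 target and acts as a tumour suppressor in mice. It read 7.00, 6.56, 6.03 and 6.74 in menin-deficient arrays, against 5.71, 5.78, 5.78 and 5.71 in control arrays. All menin-deficient arrays lay above the controls, 1.79-fold on average (log2 difference 0.84, SE 0.19, adjusted p = 0.0237), but spread far more (SD 0.41 in menin-deficient and 0.04 in control arrays, n = 4 each). Control replicates 2 and 3 held the identical value, so the control level is not known to be above background and the fold is uncertain.

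Ei24, an endoplasmic reticulum protein first found as a p53-induced gene, had the smallest rise and the smallest standard error of the 5 genes that rose. It read 13.06, 13.04, 13.12 and 13.01 in menin-deficient arrays, against 12.79, 12.92, 12.87 and 12.78 in control arrays (1.17-fold, difference 0.22, SE 0.05, adjusted p = 0.0175). After centring on the median tested gene its difference was 0.10 (adjusted p = 0.328).

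Phlda3, a p53 target that inhibits AKT, read 5.91, 5.59, 4.77 and 6.34 in menin-deficient arrays, against 5.19, 5.05, 5.31 and 5.10 in control arrays. Menin-deficient replicate 3 was the lowest of all 8 arrays while the other menin-deficient arrays lay above every control. With all arrays the difference was 0.49 (SE 0.31, adjusted p = 0.295), and without that replicate it was 0.79 (adjusted p = 0.0345). Phlda3 passed in only 1 of 21 alternative settings, which was that one, and its adjusted p across them reached 0.543. The same replicate was the lowest menin-deficient array for Zmat3. Aen, a nuclease induced by p53, differed by -0.03 and the death receptor Fas by 0.08 (adjusted p = 0.909 and 0.879), and Fas was dim (4.19 in menin-deficient and 4.11 in control arrays). Perp, a membrane protein of p53-dependent death, stayed near the bottom of the scale, with means of 2.92 in menin-deficient and 2.56 in control arrays (difference 0.36, adjusted p = 0.272). Eda2r and the TRAIL receptor Tnfrsf10b did not pass the filter on low values, and both Tnfrsf10b probe sets read 2.08 on every array.

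Of 5 tested genes of DNA repair and nucleotide supply, 1 rose (20%, against 16.2% of all tested genes) and 0 fell (against 5.17%). After centring 0 were higher and 2 lower, where 7.67% of all genes were higher and 8.17% lower. A list of 5 genes is too short to tell these counts from those shares. Xpc, which finds damaged bases in nucleotide excision repair, was the one that rose. It read 10.87, 11.04, 11.20 and 10.85 in menin-deficient arrays, against 10.65, 10.61, 10.61 and 10.58 in control arrays. The groups did not overlap (1.30-fold, difference 0.38, SE 0.08, adjusted p = 0.0196), and after centring the difference was 0.25 (adjusted p = 0.0788). Ercc5 (XPG), the nuclease that cuts 3′ of the damage in the same pathway, read 8.89, 8.73, 9.06 and 8.95 in menin-deficient arrays, against 9.46, 8.98, 9.48 and 9.24 in control arrays. Its difference was -0.38 (SE 0.13, adjusted p = 0.0756), and after centring it was lower (-0.51, adjusted p = 0.0238).

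Rrm2b encodes the p53-inducible small subunit of ribonucleotide reductase, which supplies DNA precursors outside S phase, and all 4 of its probe sets were on the lower side. The brightest read 12.73, 12.74, 12.82 and 12.62 in menin-deficient arrays, against 13.01, 12.91, 12.83 and 13.07 in control arrays. The groups did not overlap, and the difference of -0.23 (SE 0.07) missed the threshold narrowly (adjusted p = 0.0522). After centring it was -0.35 (adjusted p = 0.0176). Of the dimmer Rrm2b probe sets, 1437221_at read 9.63, 9.28, 9.36 and 9.75 in menin-deficient arrays, against 10.76, 10.10, 10.11 and 10.22 in control arrays. It fell without overlap (-0.79, SE 0.18, adjusted p = 0.0312 in the fit over probe sets), as did 1437222_x_at (-0.72, adjusted p = 0.0369).

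Ddb2, the partner of XPC in recognising ultraviolet damage, gave opposite signs. Its brightest probe set, an _s_at set, differed by -0.23 (adjusted p = 0.165). The other (1425706_a_at) read 9.86, 10.30, 9.97 and 9.83 in menin-deficient arrays, against 9.45, 9.18, 9.53 and 9.77 in control arrays. On it the groups did not overlap, but it did not pass in the fit over probe sets (0.51, SE 0.15, adjusted p = 0.0683). Polk, a polymerase that copies past lesions, differed by 0.21 (adjusted p = 0.344).

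In the stress and metabolism group Dcxr rose. It encodes a reductase of dicarbonyls and L-xylulose in sugar metabolism. It read 12.36, 12.49, 12.64 and 12.41 in menin-deficient arrays, against 11.91, 12.23, 11.49 and 11.71 in control arrays. The groups did not overlap (1.56-fold, difference 0.64, SE 0.16, adjusted p = 0.0296), and after centring the difference was 0.51 (adjusted p = 0.0706).

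The sestrins, which restrain mTORC1 under stress, did not pass on their brightest probe sets (Sesn1 -0.02, Sesn2 -0.04, Sesn3 0.17, adjusted p = 0.914, 0.485 and 0.398), and Sesn2 was dim (3.26 in menin-deficient and 3.30 in control arrays). One Sesn1 probe set (1438931_s_at) had the largest difference of the 52 kept member probe sets. It read 11.48, 10.98, 11.58 and 11.11 in menin-deficient arrays, against 12.37, 12.45, 12.26 and 12.18 in control arrays. It was 2.04-fold lower without overlap (-1.03, SE 0.15, adjusted p = 0.00846 in the fit over probe sets), while the other Sesn1 probe sets differed by -0.02, -0.20 and 0.04. The suffix _s_at marks a set that can match transcripts of more than 1 gene. The brightest Sesn1 probe set (1433711_s_at) carries it too, and whether either set reads other transcripts was not tested.

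Probe sets of 1 gene often disagreed. In the fit of each kept probe set by itself, 6 of 52 member probe sets were higher (11.5%, against 9.34% of 26790 probe sets) and 5 were lower (9.62%, against 4.87%). The 6 higher ones belong to Zmat3, Dcxr, Pml, Xpc, Ei24 and Ccng1, and the 5 lower ones to Sesn1, Btg1, Mdm2 and, with a pair, Rrm2b. None of the lower ones was the brightest of its gene. Across alternative settings the call was lost in 1 of 19 for Sesn1, 7 of 20 for Btg1, 10 of 20 for Mdm2, and 7 of 20 and 9 of 19 for the Rrm2b pair. Of 17 members with several kept probe sets, 6 had at least 1 that passed, and no gene had probe sets that passed in both directions. The share over all genes with several kept probe sets was not computed, so the 6 cannot be called many or few. Btg1 restrains lymphocyte growth and is abundant in resting B cells. Its second probe set (1437455_a_at) read 14.42, 14.35, 14.51 and 14.25 in menin-deficient arrays, against 15.01, 14.89, 14.61 and 15.08 in control arrays. It was 1.43-fold lower (-0.52, SE 0.11, adjusted p = 0.0263), another differed by -0.91 (adjusted p = 0.104), and the brightest by -0.09 (adjusted p = 0.433 over genes). The plot of probe sets within genes shows all of these differences, and the plot of 4 such genes by array shows the values.

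**Figure D3:**
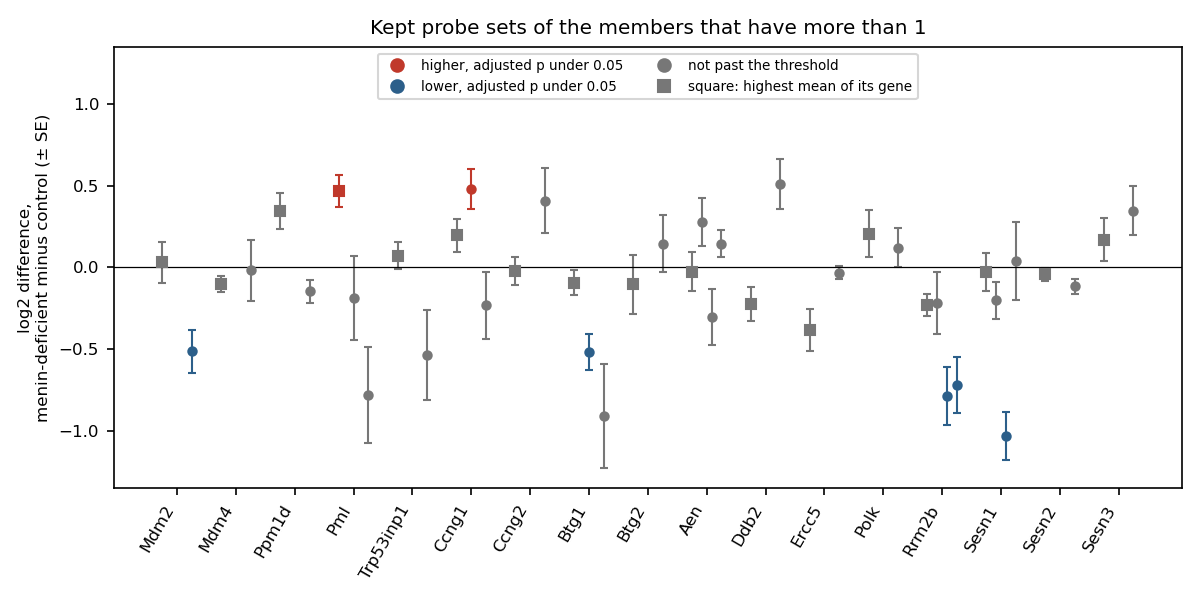
Log2 difference with its standard error of each kept probe set of the 17 members that have more than 1, from the fit over probe sets. Squares are the brightest probe set of a gene, red is higher and blue is lower at an adjusted p under 0.05. The 5 blue points (-1.03 to -0.51) are all circles.

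**Figure D4:**
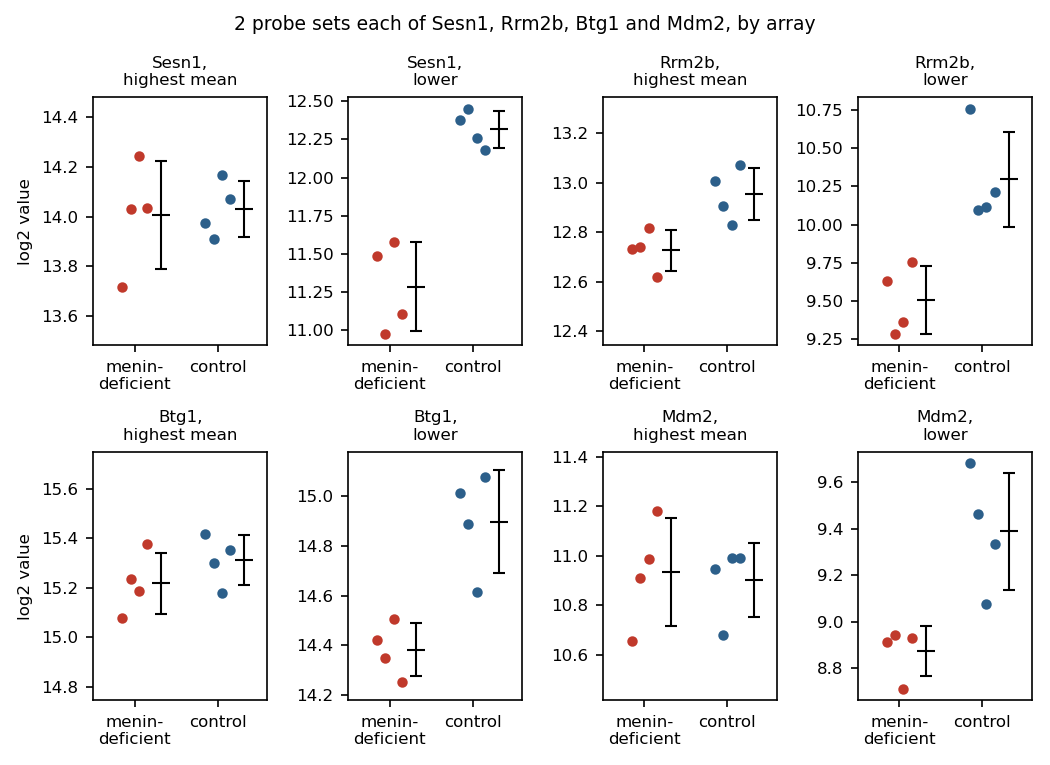
Log2 values by array on the brightest probe set and on 1 lower probe set of Sesn1, Rrm2b, Btg1 and Mdm2, menin-deficient arrays in red at the left of each panel and control arrays in blue at the right. The black bar is the mean and SD of 4 arrays, and axes differ between panels and do not start at 0. The lower probe set separates the groups in all 4 genes, while the brightest one does so in Rrm2b and overlaps in the others.

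Other p53 targets, outside the list above, were counted in the same way. Of 30 genes listed, 20 were tested, 3 rose (15%, against 16.2% of all tested genes), 0 fell and 17 did not pass, with a median difference of 0.26. Cdkn1a, the CDK inhibitor p21 and the main arrest gene of p53, rose most: 12.94, 13.05, 12.55 and 12.86 in menin-deficient arrays, against 12.07, 11.85, 11.46 and 11.75 in control arrays (2.10-fold, adjusted p = 0.00587). Pidd1, an adaptor of caspase-2, rose 1.32-fold (adjusted p = 0.0146). Ptprv, a mouse phosphatase induced by p53, read 3.38, 3.88, 3.91 and 3.88 in menin-deficient arrays and rose (adjusted p = 0.00388). All 4 controls held the same value, 2.80, so it is not known to be above background there and no fold is given. After centring 2 were higher and 1, Tigar, was lower (-0.72, adjusted p = 0.0188), where 7.67% of all genes were higher and 8.17% lower. Tigar was named after its value was seen.

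Upstream of p53, 2 of 27 tested kinases and modifiers rose (7.41%, against 16.2% of all tested genes) and 3 fell (11.1%, against 5.17%). Atm, the kinase that reports double-strand breaks, rose 1.27-fold and Wrap53, whose gene overlaps the p53 gene, 1.26-fold (adjusted p = 0.0462 and 0.0366). Trp53bp1, the acetyltransferase gene Ep300 and the kinase gene Hipk2 fell 1.65-fold, 1.52-fold and 1.18-fold (adjusted p = 0.00640, 0.0207 and 0.0304). After centring 0 of the 27 were higher and 4 lower, where 7.67% of all genes were higher and 8.17% lower. Of 23 tested FOXO targets outside the list, 1 rose (4.35%, against 16.2% of all tested genes), which was Blnk (1.31-fold), and 4 fell (17.4%, against 5.17%), which were Cat, Cdkn1b, Rag1 and Insr (1.17-fold to 1.55-fold). Rag1 is also the gene of the Rag1-cre driver, carried only by menin-deficient mice, so the driver's part in its fall cannot be told apart. Atm and Blnk were named after their values were seen. After centring 0 were higher and 6 lower. The medians were 0.07 for the upstream genes and -0.02 for the FOXO targets, against 0.11 for all tested genes.

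**Figure D5:**
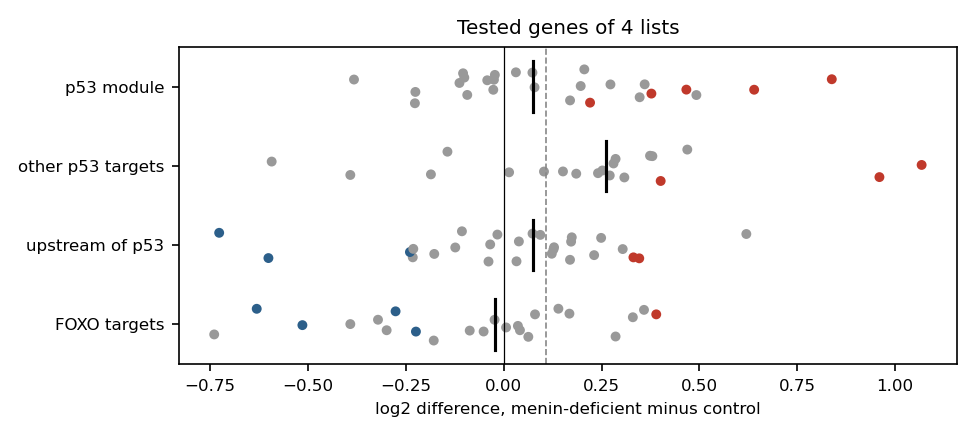
Log2 difference, menin-deficient minus control, of each tested gene of the p53 module (26 genes), of other p53 targets (20), of genes upstream of p53 (27) and of FOXO targets (23). Red is higher and blue lower at an adjusted p under 0.05, black bars are list medians (0.08, 0.26, 0.07 and -0.02), and the dashed line is the median of all tested genes (0.11).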

How the data were processed

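Total RNA of sorted cells was amplified, labelled with biotin and hybridised to Affymetrix mouse arrays, per the labels' protocols. The values the authors deposited run from 2.08 to 17.4 and were read as log2. MAS5 and GCRMA stand in the submitters' processing notes, and which of them gave these values is not known here. Groups come from sample titles, and the labels call the samples biological replicates.

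Of 45037 probe sets, 26790 were kept, those that exceeded the 40th percentile of their array in 4 or more arrays. Each of 11885 genes was represented by its brightest kept probe set. Genes and probe sets were each fitted with limma 3.58.1 (lmFit, eBayes, under R 4.3.3), with no covariates, adjusted by Benjamini-Hochberg over all genes or probe sets, at a threshold of 0.05. The fit was tested on simulated data. Members and lists were chosen with earlier results of these data known. All 32 members are named, and of each other list up to 4 genes of lowest p past the threshold. Same-numbered replicates did not deviate together (correlations -0.31 to 0.05). With deviations from means of only 4 arrays, this cannot settle whether the numbers pair the mice. The main fit treated them as unpaired. By Xist and Eif2s3y, 2 menin-deficient and 1 control mice were male. Alternatives varied scaling, filter, variance model, probe set choice, covariates and arrays. Plots used matplotlib 3.10.9.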

Additional observations from a re-analysis of the deposited data

Results flagged for a closer look

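On the values of 32 probe sets, 7 of 64 groups of 4 arrays held 1 array far from the other 3, and chance gives about 1 in 20 groups. Mdm2 had 8.71 in menin-deficient replicate 3 on its lower probe set (others 8.91 to 8.94) and 10.68 in control replicate 2 on its brightest one (others 10.95 to 10.99). Perp had 3.51 in menin-deficient replicate 1 (others 2.70 to 2.78) and 2.19 in control replicate 3 (others 2.66 to 2.71). Fas had 4.88 in control replicate 4 (others 3.85 to 3.86). Sesn2 had 3.19 in menin-deficient replicate 4 and 3.36 in control replicate 4, with the other arrays at 3.28. Perp, Fas and Sesn2 read low on the scale of the table (2.08 to 17.4).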

How the results depend on the processing

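Of the 5 genes that rose, Pml changed sign, on the mean of its probe sets (-0.17). With the probe set of the largest interquartile range Mdm2 (-0.51) and Ddb2 (0.51) had the other sign and passed the threshold. Mdm2 was also below 0 on its brightest probe set with quantile normalization (-0.03) and with array-median (-0.04) or tested-gene centring (-0.09), without passing. Aen, Btg2, Ccng2, Fas, Plk2, Sesn1 and Trp53inp1, none past the threshold in the main setting, took either sign across settings. Rises numbered 5 in the main setting. Centring on the array median or on the median tested gene gave 2 rises, no filter and the 60th percentile filter 3 and the replicate block 0, while falls, 0 in the main setting, numbered 1 with array-median centring or trended eBayes, 2 with quantile normalization, centring on the median tested gene, array weights or a threshold of 0.10, and 3 with the mean or the most variable probe set. Leaving out 1 array gave 1 to 6 rises and 0 to 1 falls: rises numbered 2 and 3 when control replicate 1 or 4 was left out, and 1 and 3 when menin-deficient replicate 2 or 4 was. Member probe sets (6 higher, 5 lower) were higher in 2 cases with quantile normalization or either centring, 1 without a filter and 0 with the replicate block, and lower in 1 without a filter, 0 with the replicate block, 2 with sex as a covariate and 3 without _x_at and _s_at sets. Leaving out 1 array gave 0 to 4 higher and 1 to 5 lower. Over all 26790 probe sets, 2503 were higher and 1305 lower in the main setting. Higher ones numbered 1780 with quantile normalization, 1481 with array-median centring and 1700 with the other centring. Without a filter 1291 were higher and 644 lower of 45037, and under the replicate block 689 and 394 of 26790. Under the replicate block all genes called numbered 984 higher and 344 lower, against 1922 and 614 of 11885 in the main setting. Counts over all genes also moved: 1082 and 697 with array-median centring, 911 and 971 with tested-gene centring, and 1339 and 730 with quantile normalization. Without a filter they were 1257 and 416 of 18193, and with the 60th percentile filter 1808 and 633 of 9196. Averaged probe sets gave 1567 and 444, and the most variable ones 2077 and 893. Zmat3 kept its call in 15 of 21 alternatives, Ei24 and Xpc in 17 of 22, Pml in 18 of 22 and Dcxr in 13 of 22. The cause was not tested.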
